A study of Mus musculus with 18 samples.

Results

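The genes of oxidative phosphorylation were followed in the livers of newborn C57BL/6J mice given a synthetic miR-497a-5p mimic or a scrambled mimic. They were taken as the genes that the deposited table annotates with the KEGG pathway oxidative phosphorylation and whose mean over the 18 libraries was 10 or more. The rule gave 107 of the 31165 genes of the table. Another 9 genes carried the annotation with a lower mean. Of all genes in the table, 14104 had a mean of 10 or more and were tested.

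All mice shared one genetic background and received 2 intraperitoneal injections, on postnatal days 1 and 3. Livers were collected at P5, P7 or P14, and each day has 3 libraries of mimic-injected and 3 of scrambled-injected mice, from stranded messenger RNA. The scrambled mimic is the control oligonucleotide, so no group is without an injection. The protocol names a high and a lower dose, and the labels do not say which dose a library received, nor which libraries are littermates. P-values therefore measure the spread between these libraries. The values are scaled counts, which are gene counts that the authors brought to a common library scale and rounded. They summed to between 3954405 and 4248257 per library.

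Oxidative phosphorylation takes place at the inner mitochondrial membrane. Complexes I and II feed electrons into the chain, complexes III and IV pass them on to oxygen, and the proton gradient built on the way drives ATP synthase. The liver relies on it to power urea synthesis and the making of glucose, both of which mature around birth and weaning. KEGG also files under this pathway the vacuolar proton pump (V-ATPase), which spends ATP to acidify lysosomes and endosomes, together with inorganic pyrophosphatases and the gastric type of proton and potassium pump.

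By gene name the 107 members comprised 38 of complex I, 4 of complex II, 9 of complex III, 14 of complex IV, 4 assembly factors of complex IV, 15 of ATP synthase, 19 of the V-ATPase, 3 pyrophosphatases and the pump gene Atp4a. Ndufa4 carries a complex I name and is known as a subunit of complex IV. It was left with the complex I names, as was its paralog Ndufa4l2. The table lists 0 genes of the mitochondrial genome, so the subunits encoded there are not analysed here. The members' median transcript length was 934 bases, against 2622 bases over all tested genes with a length. Their median level was 0.363 scaled counts per base of transcript, against 0.0765 over all tested genes. Of the members, 27 (25.2%) lay above 0.5 scaled counts per base, against 405 of 14096 tested genes (2.87%).

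The injected sequence and a few stretches of the members' genes are shown first, because they are what a mimic and the known regulators of these genes could read. The mature miR-497a-5p of RefSeq (GRCm38.p6, chr11:70234730-70234751, plus strand) is printed with its seed, bases 2 to 8, in capitals.
miR-497a-5p: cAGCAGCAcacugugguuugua
A perfect match of that seed reads TGCTGCT in a transcript. Of the members, 11 of 107 (10.3%) held at least 1 such match in the 3′ UTR annotated by GENCODE M21, against 3550 of 13204 tested genes (26.9%). The members' 3′ UTRs had a median length of 360 bases, against 1348 bases. The stretch taken as 3′ UTR was the longest after an annotated stop codon in any transcript of the gene. It could exceed the transcript length used for its gene, as in Atp6v1g2, with 969 against 524 bases. Such stretches may hold bases that other transcripts of the gene translate. The bases around the Atp6v0a2 match hold no stop codon when read from the first base. Whether they are coding was not tested, and the counts of matches carry this limit. Matches in an ATP synthase subunit c gene, in 2 assembly factors of complex IV and in a V-ATPase subunit gene are shown in capitals with 10 bases on each side.
Atp5g1: cagccgtcccTGCTGCTttgactccat
Cox11: ggtgaaaagaTGCTGCTatcctgtgat
Cox15: atctgccattTGCTGCTtcataagagg
Atp6v0a2: cggtatatccTGCTGCTgatggggctg

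Promoters of 250 bases before to 50 after the start were available for 85 members from RefSeq (GRCm38.p6). On either strand, the NRF1 motif GCATGCGC was found in 12 of them (14.12%), against 5.59% of the tested genes with a promoter and 3.05% of all genes with one. The YY1 motif AAGATGGCG was in 9 members (10.59%), against 3.35% and 1.64%. The ETS family motif CCGGAAGT, which GABPA reads, was in 9 members (10.59%), against 8.49% and 4.31%. The ERR motif TCAAGGTCA was in 2 members (2.35%), against 0.35% and 0.47%. A match describes letters and not a bound site. Promoters holding these motifs in capitals are shown for a complex II subunit with the NRF1 motif, for a heme synthesis enzyme of complex IV assembly with ETS and YY1 motifs, and for a second complex II subunit with the ERR motif on the other strand.
Sdhb (chr4:140961021-140961320, plus strand): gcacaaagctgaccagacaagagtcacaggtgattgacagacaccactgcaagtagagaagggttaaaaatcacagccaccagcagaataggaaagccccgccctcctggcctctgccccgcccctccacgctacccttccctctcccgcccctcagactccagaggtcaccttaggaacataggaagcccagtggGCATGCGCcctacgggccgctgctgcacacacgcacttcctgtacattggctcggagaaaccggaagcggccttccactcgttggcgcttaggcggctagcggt
Cox10 (chr11:64079423-64079722, minus strand): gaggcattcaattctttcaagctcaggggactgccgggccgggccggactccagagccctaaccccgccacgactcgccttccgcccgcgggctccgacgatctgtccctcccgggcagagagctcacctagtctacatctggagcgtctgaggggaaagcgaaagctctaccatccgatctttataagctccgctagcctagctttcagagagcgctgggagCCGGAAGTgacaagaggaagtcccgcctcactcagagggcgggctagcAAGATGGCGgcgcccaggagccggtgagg
Sdhd (chr9:50603800-50604099, minus strand): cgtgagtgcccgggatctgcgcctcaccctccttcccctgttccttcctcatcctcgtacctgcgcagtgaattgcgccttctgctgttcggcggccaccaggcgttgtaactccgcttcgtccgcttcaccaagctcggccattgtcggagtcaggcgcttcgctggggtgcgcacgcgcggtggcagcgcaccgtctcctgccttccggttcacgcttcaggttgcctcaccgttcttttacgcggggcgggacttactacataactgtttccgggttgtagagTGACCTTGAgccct

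The members' transcripts moved together from library to library, also among replicates of 1 group. The members' share of all scaled counts was between 0.840% and 1.08% at P5, between 0.798% and 0.932% at P7, and between 0.997% and 1.09% at P14. For each library the median deviation of the 107 members from their means over all libraries was taken on the log2 scale. In P5 scrambled livers that median was -0.18, 0.30 and 0.09 in replicates 1, 2 and 3, a spread wider than the differences between days described below. The same was measured for short transcripts outside the pathway. The 1299 other tested genes under 1000 bases had medians of -0.10, 0.25 and 0.18 in the same 3 libraries.

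Each library was therefore given a length slope, the change of its log2 deviation per doubling of transcript length. The slope was 0.05, -0.14 and -0.11 in P5 scrambled replicates 1, 2 and 3. Over the days it ranged from -0.14 to 0.05 in P5 livers, from 0.01 to 0.15 in P7 livers and from -0.09 to 0.02 in P14 livers. The P7 libraries thus held relatively more of long transcripts, with no P7 slope below 0. The members' median was between -0.18 and 0.30 at P5, between -0.29 and -0.00 at P7, and between 0.09 and 0.20 at P14. The libraries with the highest slopes, P7 scrambled replicate 2 and P7 mimic replicates 1 and 3, had the 3 lowest members' medians. When a smooth curve of deviation against transcript length was subtracted from each library, the members' median was between -0.10 and 0.10 at P5, between -0.10 and 0.02 at P7, and between 0.05 and 0.14 at P14. The corrected medians of the P14 livers all lay above those of the P7 livers, and P5 scrambled replicate 2 alone of the P5 livers reached into the P14 range. Each comparison of days is given below with and without this correction. What part RNA quality or library preparation had in the slopes was not tested.

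**Figure D1:**
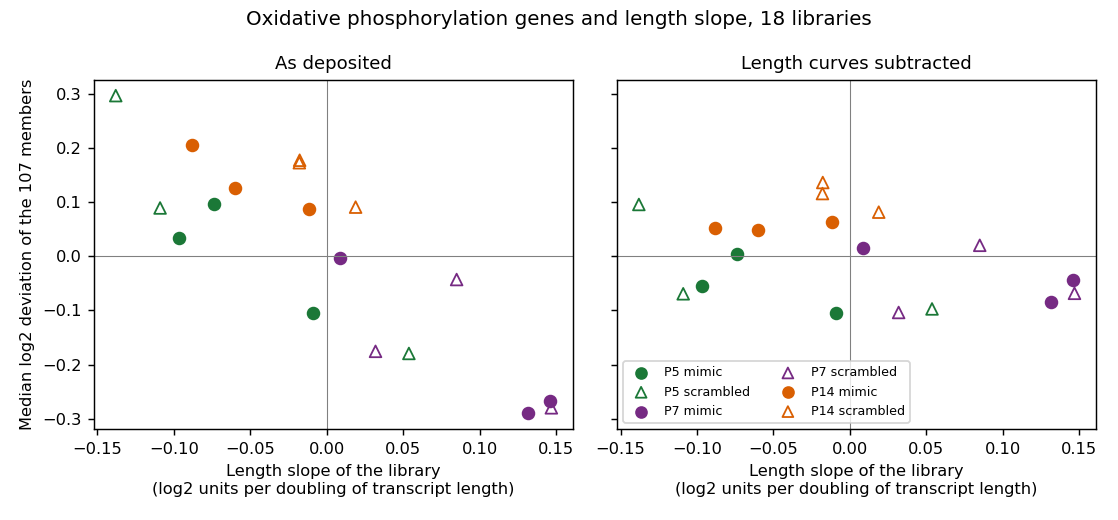
Median log2 deviation of the 107 members in each of the 18 libraries (vertical axis) against the length slope of that library (horizontal axis), as deposited (left) and after length curves were subtracted (right). Filled circles are mimic and open triangles scrambled libraries, and colours mark the day; on the left the P7 libraries with the highest slopes, near 0.15, lie lowest, and on the right the P14 libraries lie between 0.05 and 0.14.

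As deposited, called differences between P14 and P5 were found among genes of complexes I, II, III and IV, and 0 ATP synthase genes passed. Those of complex IV were the lower expressed paralogs Cox6b2, Cox7a1 and Cox4i2. Median log2 differences were 0.06 in complex IV and 0.08 in ATP synthase. Of the 107 members 25 were higher at P14 than at P5 and 3 were lower by limma at an adjusted p under 0.05. Over all tested genes 23.9% were called higher and 24.8% lower, so the members' share of higher calls was near the background and their share of lower calls below it. The median log2 difference was 0.11 over the members and 0.01 over all tested genes, and 92 of 107 members had a positive difference. With length curves subtracted, 43 members were higher and 4 lower, against 26.3% and 26.5% of all tested genes, with a median of 0.11. With the length slope as a covariate, 59 members were higher, against 27.0% of all tested genes. All 25 higher and all 3 lower calls passed in the length-corrected fit too. Leaving out 1 library at a time gave 18 to 35 higher calls. These are bulk livers, in which a smaller number of cells of a type and less RNA per cell cannot be told apart. Beside these differences, the red cell precursor list summed to between 842 and 1843 scaled counts at P14, against 7430 to 10326 at P5, with 9 of 10 genes lower. The neutrophil list summed to between 609 and 1410 at P14, against 3856 to 7611 at P5, with 9 of 9 genes lower. The hepatocyte list, which marks the main cell of the labelled tissue, summed to between 11600 and 14040 at P14, against 9354 to 13340 at P5, with 3 of 10 genes higher and 0 lower. No marker of these 3 lists was at 0 in all libraries. The part of the cell mix in the members' differences was not tested.

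Complex I, which takes electrons from NADH, had 10 of 38 members higher at P14 than at P5 and 0 lower, with a median log2 difference of 0.15. The higher share was near the 23.9% of all tested genes, and the lower share was under their 24.8%. Ndufv1, the subunit that binds NADH (chr19:4007497-4012806, minus strand, in mm10 as the other coordinates of the table), had a lowest, median and highest value of 749, 780 and 857 scaled counts at P14, against 599, 685 and 720 at P5. All P14 livers lay above all P5 livers, and the log2 difference was 0.24 (SE 0.06; adjusted p = 0.00254 by limma). Ndufa10, an accessory subunit of the membrane arm (chr1:92439010-92473860), had 698, 727 and 770 scaled counts at P14, against 571, 638 and 668 at P5, again without overlap. Its log2 difference was 0.22 (SE 0.06; adjusted p = 0.00305 by limma). Ndufs1, the large iron-sulfur subunit, had 655, 836 and 972 at P14, against 632, 655 and 710 at P5. The ranges overlapped through P14 mimic replicate 1, and the log2 difference was 0.31 (SE 0.06; adjusted p = 0.000431 by limma). Length-corrected, 22 of 38 complex I members were higher, against 26.3% of all tested genes.

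Complex II, succinate dehydrogenase, links the chain to the citric acid cycle. Its flavoprotein gene Sdha had 1289, 1468 and 1582 scaled counts at P14, against 1176, 1218 and 1355 at P5, with a log2 difference of 0.24 (SE 0.06; adjusted p = 0.00138 by limma). The ranges overlapped through 2 libraries, P14 mimic replicate 1 and P5 scrambled replicate 2. The iron-sulfur subunit gene Sdhb, whose promoter is printed above, had 511, 544 and 565 at P14, against 403, 475 and 557 at P5. Its log2 difference of 0.19 passed narrowly (SE 0.07; adjusted p = 0.0424 by limma), and the call was lost when any of 9 single libraries was left out, with adjusted p between 0.0509 and 0.118. The membrane anchor Sdhc rose by 0.23 on the log2 scale (SE 0.07; adjusted p = 0.0126 by limma), and the anchor Sdhd had a difference of 0.12 that did not pass (adjusted p = 0.198 by limma). Thus 3 of the 4 genes were called higher, beside 23.9% of all tested genes.

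In complex III, which hands electrons to cytochrome c, 2 of 9 members were higher and 0 lower, with a median of 0.10. Over all tested genes 23.9% were called higher and 24.8% lower, so the higher share of complex III was near the background. The core protein gene Uqcrc2 had 847, 890 and 963 scaled counts at P14, against 718, 799 and 866 at P5, with a log2 difference of 0.19 (SE 0.06; adjusted p = 0.0166 by limma, and 0.117 with quantile normalization). Its partner Uqcrc1 had a difference of 0.08 that did not pass. In complex IV, cytochrome c oxidase, 2 of 14 members were higher and 1 lower, with a median of 0.06. Both shares lay below those of all tested genes. Its general subunit genes Cox4i1 and Cox5a had differences of 0.03 and 0.14, and neither passed. Of the 4 assembly factors, Cox10 and Cox15, which act in turn in making heme a, rose by 0.30 (SE 0.08; adjusted p = 0.00443 by limma) and 0.26 (SE 0.07; adjusted p = 0.00365 by limma).

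Of the 15 ATP synthase genes 0 passed the test in either direction between P14 and P5. Their median log2 difference was 0.08, and 14 of 15 differences were positive. Of these genes 8 lay above 0.5 scaled counts per base. Among all 27 members above that level 1 was called higher, against 24 of the 80 members at or under it. The share over all tested genes was 23.9%. The part of the level in the lack of calls was not tested. Atp5a1 and Atp5b, which encode the alpha and beta subunits of the catalytic head, had the highest scaled counts of all members, not corrected for length. Atp5b had 1360, 1408 and 1575 scaled counts at P14, against 1257, 1370 and 1682 at P5, and Atp5a1 had 1573, 1600 and 1768 at P14, against 1376, 1514 and 1795 at P5. For both genes the P5 range enclosed all P14 livers, and the log2 differences were 0.05 and 0.10. Length-corrected, 2 of 15 were higher, against 26.3% of all tested genes. With the slope as a covariate 7 of 15 were higher, against 27.0%.

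The V-ATPase genes went both ways. Of 19 members 4 were higher and 2 lower at P14 than at P5, against 23.9% and 24.8% of all tested genes. The higher share was thus near the background and the lower share below it. The median log2 difference was -0.01, against 0.12 over the 80 genes of the respiratory complexes and ATP synthase. The difference between these groups of genes was not tested. The members called were Atp6v0d2, Atp6v0e2, Atp6v1h and Atp6v1c1 (higher) and Atp6v0a1 and Atp6v1b2 (lower). Atp6v1h, the regulatory H subunit of the cytosolic part, had 444, 467 and 520 scaled counts at P14, against 392, 409 and 431 at P5, with no overlap and a log2 difference of 0.21 (SE 0.06; adjusted p = 0.00761 by limma). The calls of Atp6v1c1 and Atp6v1b2, with differences of 0.15 and -0.15, were lost when any of 5 and of 6 single libraries was left out.

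**Figure D2:**
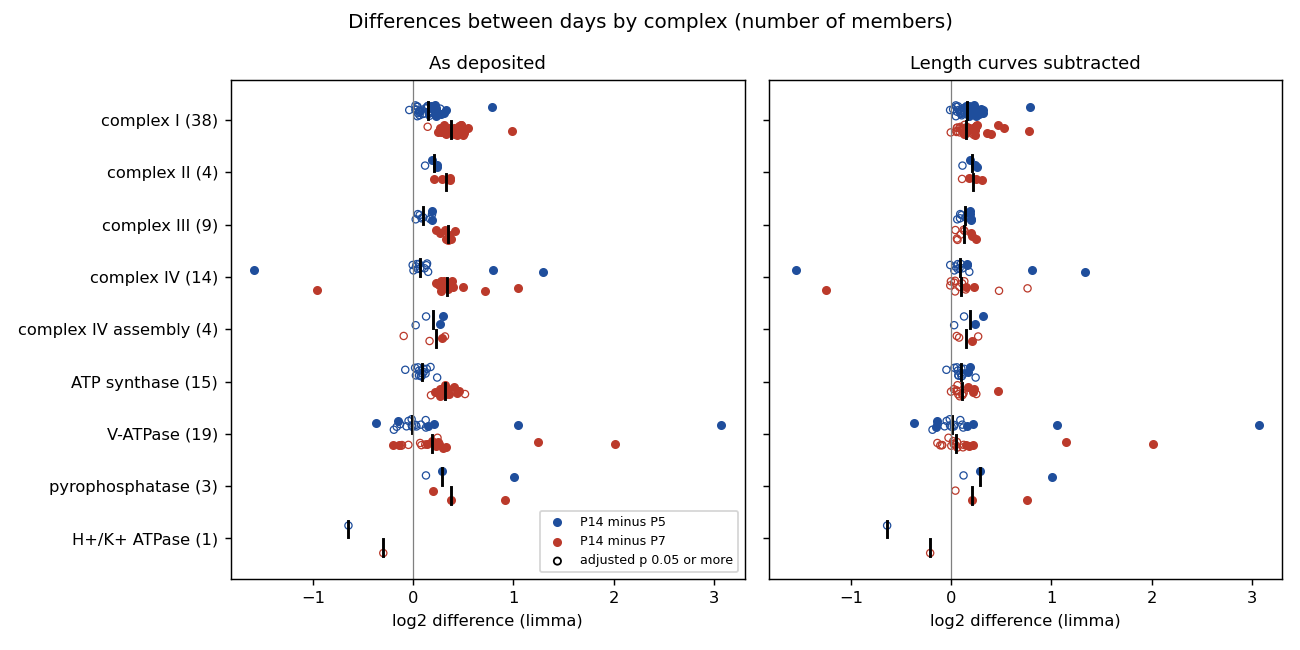
Log2 differences of every member by complex (rows, number of members in parentheses), P14 minus P5 (blue) and P14 minus P7 (red), as deposited (left) and after length curves were subtracted (right). Filled points passed limma's adjusted p of 0.05 and black bars are medians; the 2 comparisons share the P14 libraries, and on the right the 2 medians of complex I lie at 0.16 and 0.15.

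The 4 called members with the largest differences between P14 and P5 were paralogs that stand in for a general subunit. Atp6v0d2 (chr4:19876841-19922605, minus strand) encodes the d subunit form known from osteoclasts and macrophages of mice. It had 164, 211 and 227 scaled counts at P14, against 8, 25 and 48 at P5, with 28, 49 and 79 at P7 between them. The P14 livers lay far above all others, and the log2 difference from P5 was 3.07 (SE 0.23; adjusted p = 3.2e-09 by limma), an 8.40-fold change. The widely expressed Atp6v0d1 had 468, 495 and 518 at P14, against 446, 490 and 512 at P5, with a difference of 0.03 that did not pass. Per kilobase of transcript, Atp6v0d2 made up 17.1% to 23.1% of both d subunit genes at P14, against 0.993% to 6.46% at P5. Beside it, the 8 genes of the macrophage list summed to between 3675 and 4736 scaled counts at P14, against 5202 to 6243 at P5. Of these 8 genes 6 were lower and 0 higher, beside 24.8% and 23.9% of all tested genes. Among them Adgre1 had a median of 387 at P14, against 668 at P5, while Clec4f lay between 793 and 954 at P14 and between 853 and 1013 at P5.

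Another V-ATPase paralog, Atp6v0e2 of the membrane part (chr6:48537615-48541801), had 77, 116 and 174 scaled counts at P14, against 35, 49 and 95 at P5. P5 scrambled replicate 3 reached into the P14 range, and the log2 difference was 1.05 (SE 0.23; adjusted p = 0.000794 by limma). Its general form Atp6v0e had a difference of -0.16 that did not pass. Atp6v0a1, the a subunit form of neurons and many other cells (chr11:101009452-101063719), fell to 353, 387 and 433 at P14, against 456, 489 and 577 at P5, without overlap. Its log2 difference was -0.37 (SE 0.07; adjusted p = 0.000272 by limma). Tcirg1, another a subunit form, and Atp6v1g1, the general G subunit form, had differences of -0.19 and -0.13 that did not pass. At P7 Tcirg1 had 449, 433 and 454 in mimic livers, against 479, 576 and 488 in scrambled livers (log2 difference -0.20; adjusted p = 0.73 by limma).

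In cytochrome c oxidase, Cox6b2 and Cox7a1 moved in opposite directions. Cox6b2, the form of subunit 6B known from testis (chr7:4751792-4753094, minus strand), had 21, 31 and 43 scaled counts at P14, against 57, 97 and 113 at P5, with 40, 62 and 67 at P7. No P14 liver reached the lowest P5 value, and the log2 difference was -1.59 (SE 0.20; adjusted p = 1.89e-06 by limma). Per kilobase, Cox6b2 made up 6.53% to 12.4% of both 6B genes at P14, against 18.7% to 28.9% at P5. Cox6b1 had a log2 difference of 0.06 that did not pass. If counts of highly expressed genes were held down, this share and that of Atp6v0d2 above would overstate the lower paralog, which was not tested. Cox7a1, the form of subunit 7A known from heart and skeletal muscle (chr7:30184144-30186078), had 17, 21 and 36 at P14, against 5, 9.5 and 11 at P5. These values are low but did not overlap, and the log2 difference was 1.29 (SE 0.34; adjusted p = 0.00427 by limma). The skeletal muscle list summed to between 20 and 50 at P14, against 62 to 90 at P5. Of its 10 tested genes 0 were higher and 2 lower, beside 23.9% and 24.8% of all tested genes. In the smooth muscle and pericyte list, described below, 5 of 7 tested genes were higher and 0 lower. The part of either list's cells in the rise of Cox7a1 was not tested.

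One library touches the muscle forms. P7 scrambled replicate 1 had 2420 scaled counts over the 14 skeletal muscle markers, with Acta1 at 436, Myh8 at 344 and Ckm at 252. In the same library Cox7a1 stood at 38, against 5 to 9 in the other P7 livers. Cox6a2 and Cox8b, the muscle forms of subunits 6A and 8 whose means were under 10, stood there at 53 and 36, against 2 to 3 and 0 to 4 in the other P7 livers. P7 scrambled replicate 3 had 516 over the markers, led by Ttn at 301, and 17 for Atp12a, a gene at 0 or 1 in the other 17 livers. The comparison of P14 with P5 uses neither library for its difference, although both enter its estimate of spread.

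Lower expressed paralogs of Ndufa4 and Cox4i1 were higher at P14 as well. Ndufa4l2, a paralog of Ndufa4 known to be induced by lack of oxygen (chr10:127514967-127517154), had 44, 79 and 82 scaled counts at P14, against 31, 43 and 48 at P5. The ranges met only through P14 mimic replicate 3, and the log2 difference was 0.78 (SE 0.17; adjusted p = 0.000745 by limma). Cox4i2, the form of subunit 4 known from lung, had 10, 21 and 30 at P14, against 6, 12.5 and 15 at P5, with a difference of 0.79 (SE 0.28; adjusted p = 0.0265 by limma). That call was lost when any of 6 single libraries was left out, with adjusted p between 0.0534 and 0.0795. Beside both, the smooth muscle and pericyte list summed to between 1293 and 3808 at P14, against 901 to 1581 at P5. Of its 7 tested genes 5 were higher and 0 lower, beside 23.9% and 24.8% of all tested genes. The sums were 1864, 1881 and 1293 in P14 mimic livers, against 2413, 2374 and 3808 in P14 scrambled livers. All 7 genes had lower means in P14 mimic livers (median log2 difference -1.10), and 0 of these differences passed. Rgs5 had 578, 1040 and 1242 at P14, against 227, 335 and 550 at P5, and Higd1b was at 0 to 2 in all of these libraries. The part of these cells in the 2 rises was not tested.

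**Figure D3:**
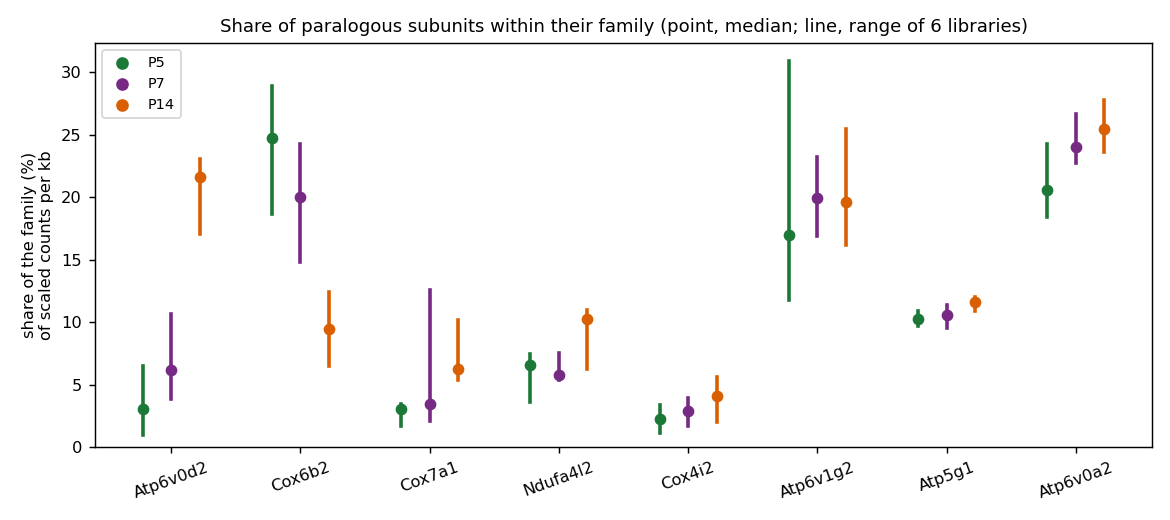
Share of 8 paralogous subunit genes in their family, in percent of scaled counts per kilobase (vertical axis), at P5, P7 and P14. Points are medians and lines the range of 6 libraries. Shares of lower paralogs would be overstated if counts of highly expressed genes were held down, which was not tested. Atp6v0d2 takes 17.1% to 23.1% of the d subunit genes at P14, and Cox6b2 6.53% to 12.4% of the 6B genes; the long line of Cox7a1 at P7 ends in P7 scrambled replicate 1.

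Among the pyrophosphatases, Lhpp (chr7:132610639-132706420), which acts on pyrophosphate and on phosphorylated histidine and lysine, was higher at P14. It had 318, 416 and 480 scaled counts at P14, against 144, 195 and 312 at P5, without overlap. The log2 difference was 1.01 (SE 0.15; adjusted p = 1.84e-05 by limma), a 2.01-fold change. Ppa2, the mitochondrial pyrophosphatase, had 367, 390 and 406 at P14, against 289, 314 and 347 at P5, again without overlap, with a difference of 0.29 (SE 0.06; adjusted p = 0.000946 by limma). The cytosolic Ppa1 had a difference of 0.13 that did not pass. Atp4a, the catalytic subunit of the stomach's acid pump, had 17, 32 and 43 at P14, against 28, 44 and 89 at P5, and its difference of -0.65 did not pass.

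**Figure D4:**
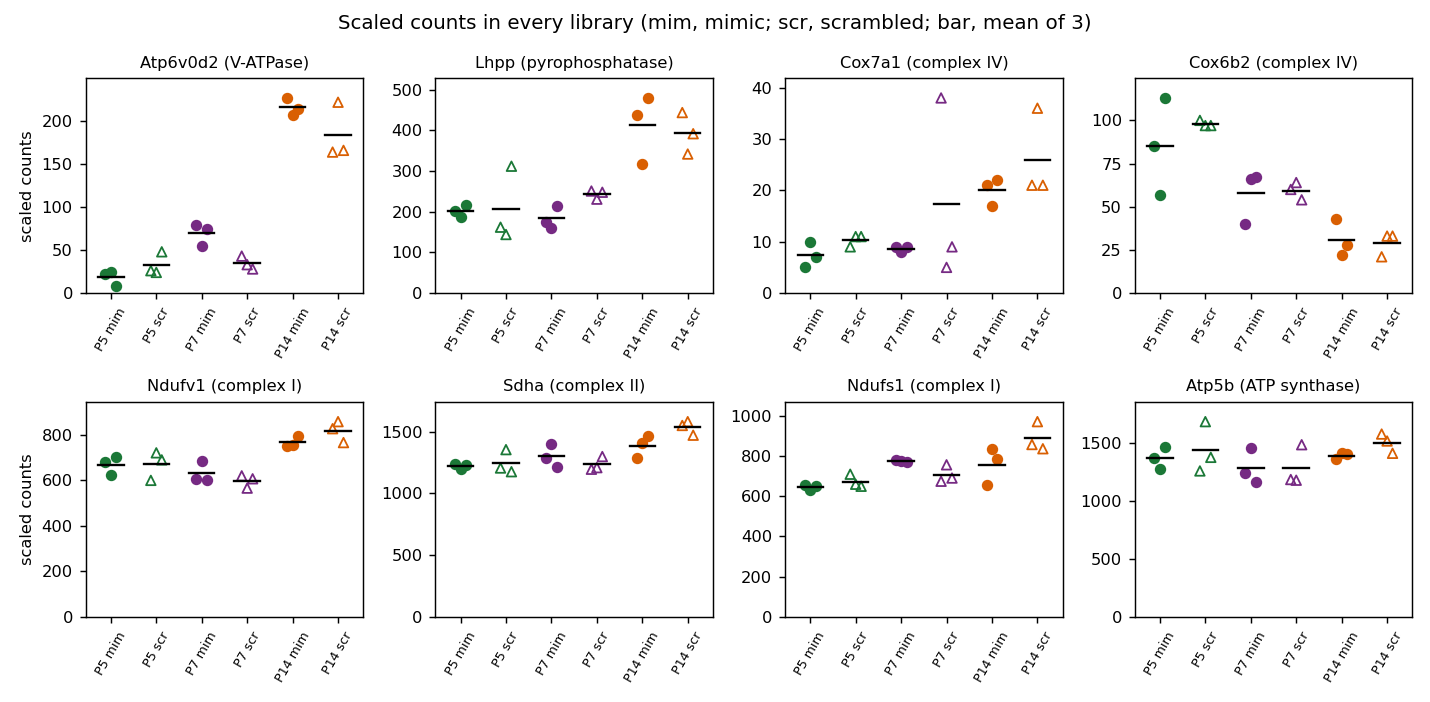
Scaled counts of 8 members in each of the 18 libraries (vertical axis, from 0), 3 points a group with a bar for the mean, mimic left of scrambled within each day. Atp6v0d2 lies at 164 or more in every P14 liver and at 79 or less in all others, Cox6b2 lies lowest at P14, and Atp5b overlaps between P14 and P5.

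Between P14 and P7 nearly the whole pathway was higher, and much of that went with transcript length. Of 107 members 89 were higher at P14 than at P7 and 3 lower, against 24.0% and 26.3% of all tested genes, with a median log2 difference of 0.33. Members under 1000 bases had a median of 0.35, and the 1299 other tested genes of that length had 0.24, against -0.02 for the longer other genes. With length curves subtracted, 41 members were higher and 1 lower, against 21.9% and 24.0% of all tested genes, with a median of 0.13 over the members and 0.01 over all tested genes. With the slope as a covariate 13 were higher, against 10.8% of all tested genes. Of the 89 higher calls 38 passed both as deposited and length-corrected. The 3 largest rises without overlap were Atp6v0d2, Atp6v0e2 and Lhpp, with log2 differences of 2.01 (adjusted p = 1.35e-06 by limma), 1.24 (adjusted p = 0.000221 by limma) and 0.92 (adjusted p = 7.62e-05 by limma). Length-corrected, the 3 differences were 2.01, 1.15 and 0.75, and all passed. The 3 lower members were Cox6b2, Atp6v0a1 and Atp6v1b2, of which Cox6b2 alone passed length-corrected, with a difference of -1.25.

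By complex, the length-corrected medians of P14 minus P7 were 0.15 for complex I, 0.21 for complex II, 0.12 for complex III, 0.10 for complex IV, 0.11 for ATP synthase and 0.04 for the V-ATPase. Those of P14 minus P5 were 0.16, 0.21, 0.14, 0.09, 0.10 and 0.00 in the same order. The 2 comparisons share their P14 livers, so their likeness is no independent result.

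Between P7 and P5 the members' difference did not outlast the length correction. As deposited, 4 members were higher at P7 than at P5 and 40 were lower, against 13.7% and 13.2% of all tested genes, with a median log2 difference of -0.23. Members under 1000 bases had a median of -0.27, and so had the other tested genes of that length. With length curves subtracted, 3 were higher and 4 lower, against 7.48% and 7.49% of all tested genes, with a median of -0.00. With the slope as a covariate, 0 were lower, against 0.0% of all tested genes, and 92 of 107 differences were positive. Slopes differed between P5 and P7 livers, so that fit cannot separate day from slope well. It called 1 of 14104 genes higher and 0 lower. The 40 lower calls also rested on single libraries. Their count was 13, 11, 70, 13 and 16 without P5 mimic replicates 1 and 3 and P5 scrambled replicates 1, 2 and 3 in that order. It was 10, 13, 24 and 13 without P7 mimic replicates 1 and 3 and P7 scrambled replicates 1 and 2. Atp6v0e had 197, 216 and 232 scaled counts at P7, against 253, 282 and 336 at P5. It fell without overlap, by 0.42 on the log2 scale (adjusted p = 0.00349 by limma). Cox15 had 477, 528 and 548 at P7, against 360, 399 and 468 at P5. It rose without overlap, by 0.36 (adjusted p = 0.00345 by limma). Length-corrected, the differences were -0.18 for Atp6v0e and 0.18 for Cox15, with limma adjusted p of 0.0476 and 0.0428. With the slope as a covariate neither passed, with limma adjusted p of 0.533 and 0.459. As that fit called almost no gene, it cannot decide on either.

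Genes that build and supply the chain, none of them members, were read from lists. Of 43 assembly factors 22 were higher at P14 than at P5 and 0 lower, beside 23.9% higher and 24.8% lower over all tested genes, the same background as for the lists that follow, with a median log2 difference of 0.26. Of 17 citric acid cycle enzymes 11 were higher and 0 lower, with a median of 0.20. Of 22 carriers and electron entry enzymes 10 were higher and 1 lower, with a median of 0.20. Ecsit, a complex I assembly factor, had 310, 360 and 374 scaled counts at P14, against 204, 225 and 235 at P5 (log2 difference 0.66; adjusted p = 7.55e-08 by limma). Coq8a, which serves coenzyme Q synthesis, rose by 1.11 (adjusted p = 5.35e-08 by limma). Of 20 regulators of mitochondrial biogenesis 12 were higher and 3 lower. Of the regulators that read the motifs searched above, Nrf1 had 154, 168 and 211 at P14, against 268, 322 and 342 at P5 (log2 difference -0.86; adjusted p = 7.6e-08 by limma), and Esrra, which encodes an ERR, had 312, 358 and 382 at P14, against 209, 237 and 283 at P5 (log2 difference 0.54; adjusted p = 5.41e-05 by limma). Gabpa and Yy1 had log2 differences of 0.11 and -0.06 that did not pass (adjusted p = 0.311 and 0.354 by limma).

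The mimic left no member past the threshold at any day. By limma 0 of 107 members were called on each of the 3 days, against, in order of age, 0.0%, 0.00709% and 0.0213% of all tested genes. At an unadjusted p under 0.05 there were 2, 1 and 2 members at the 3 days, against 266, 1073 and 763 of 14104 tested genes. The median log2 difference, mimic minus scrambled, was -0.06 in P5 livers, and it was -0.01 both in P7 and in P14 livers. In order of age, 94, 65 and 59 of 107 differences were negative, against 7755, 7215 and 6885 of 14104 tested genes. Single libraries moved the members' medians past 0: leaving out P5 scrambled replicate 2 gave 0.0468 at P5. Leaving out P5 scrambled replicate 1 moved the P5 median further below 0, to -0.19. With length curves subtracted the medians in order of age were -0.04, 0.02 and -0.06, against -0.01, -0.00 and 0.01 over all tested genes. At P14, 85 of 107 length-corrected differences were negative, against 6781 of 14104 tested genes. With the slope as a covariate the P14 median was -0.11, against 0.01 over all tested genes. In that fit 91 of 107 differences were negative, against 6703 of 14104 tested genes. An unadjusted p under 0.05 was found for 7 members, against 848 of the 14104 tested genes. The P14 median thus depends on the length correction, and no adjusted p of a member passed in any of the 3 fits. A test of whether the mimic's effect differed between days called 0 members, against 0.00709% of all tested genes. The smallest adjusted p of a member was 0.481 (limma F test). That test had 2 members at an unadjusted p under 0.05, against 917 of 14104 tested genes. The smallest unadjusted p at P5 and at P7 belonged to Atp6v0d2. It had 22, 25 and 8 scaled counts in P5 mimic livers, against 26, 24 and 48 in P5 scrambled livers (log2 difference -0.87; adjusted p = 1.0 by limma). At P7 it had 79, 55 and 74 in mimic livers, against 43, 33 and 28 in scrambled livers (log2 difference 0.98; adjusted p = 0.38 by limma). The mimic livers lay higher at P7 without overlap and lower at P5 with overlap, on a gene at low counts. At P14 the smallest p belonged to Ndufs1, with 655, 835 and 785 in mimic livers, against 858, 972 and 837 in scrambled livers (log2 difference -0.23; adjusted p = 0.77 by limma).

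The median log2 difference of the 11 members with a seed match, mimic minus scrambled, in order of age was -0.05, -0.02 and 0.06, against -0.06, -0.01 and -0.01 for the 96 members without one. Of the 11, 9 differences were negative at P5, 6 at P7 and 3 at P14, against 85, 59 and 56 of the 96. Cox11, whose match is printed above, had 216, 242 and 240 scaled counts in P14 mimic livers, against 175, 203 and 184 in P14 scrambled livers, higher without overlap (log2 difference 0.31; adjusted p = 0.885 by limma). Atp6v0a2, also printed, had 452, 511 and 438 in P5 mimic livers, against 429, 415 and 411 in P5 scrambled livers, higher without overlap (log2 difference 0.16; adjusted p = 1.0 by limma). The match of Atp6v0a2 may lie in coding bases, which was not tested. Other members with a match went the opposite way. Atp6v1g2 had 15, 24 and 25 scaled counts in P5 mimic livers, against 21, 24 and 59 in P5 scrambled livers, with overlap (log2 difference -0.56; adjusted p = 1.0 by limma). Atp6v1a, a catalytic subunit gene of the V-ATPase, had 481, 697 and 616 in P14 mimic livers, against 639, 713 and 690 in P14 scrambled livers, with overlap (log2 difference -0.20; adjusted p = 0.976 by limma).

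**Figure D5:**
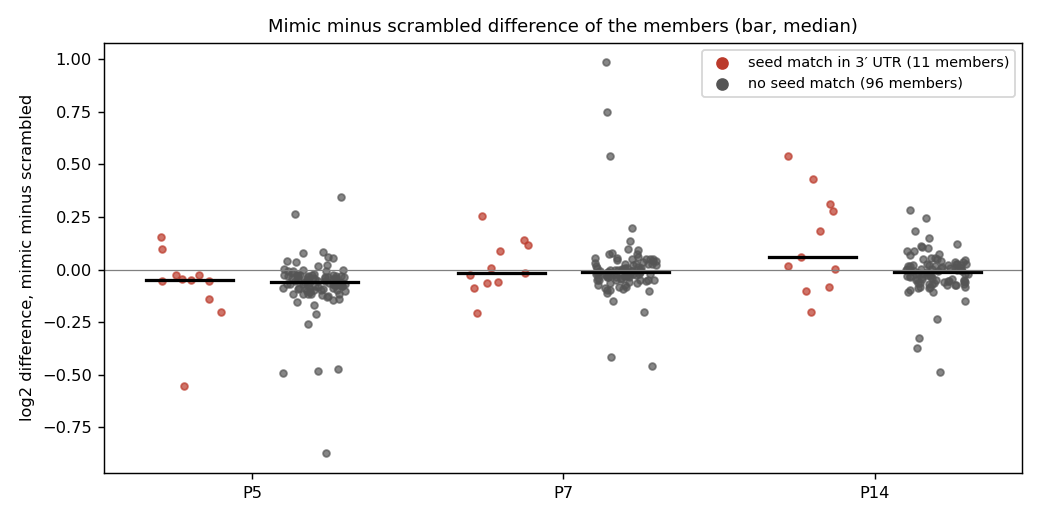
Log2 difference, mimic minus scrambled (vertical axis), of the 107 members at P5, P7 and P14. The 11 with a seed match in the stretch taken as 3′ UTR are red (left), and the 96 without are grey (right). Some matches may lie in coding bases, which was not tested. Bars are medians, which lie between -0.06 and 0.06; the 3 days use separate libraries.

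Some levels carry a mapping limit, since many of these genes have near-identical processed copies. For 12 members, at least 20% of the 50-base windows of the transcript also occur in another gene's transcripts. Their median level was 205 scaled counts per kilobase, against 402 in the 95 other members. Atp5l, an ATP synthase subunit gene, shared 68.5% of its windows with 13 genes and had a mean of 15.1 scaled counts, and Atp5g2 shared 87.4%. The sources used here do not state how reads mapping to several places were counted, so levels of these genes are uncertain. Exons of 30 members overlap a gene on the opposite strand and those of 5 a gene on the same strand. Median P14 minus P5 differences were 0.08 in the 12 and 0.11 in the 95.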

How the data were processed

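Stranded messenger RNA libraries of 18 livers were processed by the authors. Tools named in the submitters' processing notes, with no order given, include featureCounts 1.6.5, STAR 2.6.1d, Trimmomatic 0.39 and Picard 2.21.7, on GRCm38 (mm10), and the authors also list DESeq2 1.26.0. The deposited values, a score here called scaled counts, are whole numbers that the authors, judged from the near-equal library totals, divided by size factors and rounded. Raw depth is therefore unknown, and no count model was used. Whether duplicate reads were removed is not recorded in these sources. The highest level of any tested gene with a length was 2.12 scaled counts per base. At P5 the globin gene Hba-a1 had 68 to 103 scaled counts, below Kel at 542 to 869. Counts of highly expressed genes may be held down, which would shrink their levels and differences. That was not tested. Every sample column of the table was matched to a library.

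Genes with a mean of 10 or more were tested with limma 3.58.1 (R 4.3.3) on log2(value + 1), with 6 group means over all 18 libraries, a mean-variance trend and Benjamini-Hochberg adjustment over 14104 genes (threshold 0.05; 12 residual and 6.5 prior degrees of freedom). A comparison of days averages mimic and scrambled livers of a day. Fold changes are on that log2 scale and understate changes of low genes. Transcript length was the median over GENCODE M21 basic transcripts. Length curves were lowess fits (span 0.3) of each library's deviations. The script was tested on simulated data. Tables and figures were made with pandas 2.3.3, matplotlib 3.10.9 and numpy 2.4.6 under Python 3.11.15.

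Genes were named by a rule: for P14 against P5 the 8 largest rises and falls, and for other days the 3, among called members without overlap; the 2 highest of each complex; the Sdh genes; paralog families; the 4 smallest p per day for the mimic; and up to 4 genes a list. Not every gene that the rule names is reported here. The genes Cox6a2, Cox8b, Atp12a, Clec4f, Acta1, Myh8, Ckm, Ttn and Higd1b lie outside the rule and were chosen after their values were seen. The members and lists were chosen with earlier results of these data known.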

Additional observations from a re-analysis of the deposited data

Results flagged for a closer look

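Ndufs1 differed in direction between days under the mimic. The log2 difference, mimic minus scrambled, was 0.134 at P7 and -0.233 at P14, with every mimic liver above every scrambled liver at P7 and below at P14. The test of a difference between days gave an unadjusted p of 0.0292 and an adjusted p of 0.699 (limma F test), so it failed the correction.

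Among 50 named members in 3 days, which are 150 groups of 6 livers, 14 values, in 7 livers, stood far from the other 5 of their day, past Dixon's critical value for 6 samples. Chance flags about 1 in 20 groups. P5 scrambled replicate 2 was high in Sdha (1355 scaled counts), Sdhd (842) and Atp5g2 (64). P7 mimic replicate 2 was high in Atp6v1h (452), Cox10 (248) and Sdhb (480). These are libraries with a length slope of -0.14 and of 0.01, the lowest of their days. P5 scrambled replicate 1, with the highest slope at P5, was high in Ndufs1 (710). P7 scrambled replicate 1, which held the skeletal muscle markers, was high in Cox7a1 (38). P14 scrambled replicate 2 was high in Cox7a1 (36) and Ppa1 (787), and P14 mimic replicate 3 in Cox10 (315). P5 scrambled replicate 3 was high in Atp4a (89). Atp6v1g2, a V-ATPase gene known from neurons, stood apart in P5 scrambled replicate 3 (59) and in P7 mimic replicate 2 (30).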

How the results depend on the processing

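Values are scaled counts of unknown raw depth, and members at low values, such as Cox7a1 and Cox4i2, are the least certain. In counts of called members, leaving out 1 library at a time gave 18 to 35 higher and 2 to 6 lower for P14 against P5, 76 to 90 and 1 to 3 for P14 against P7, and 2 to 5 and 10 to 70 for P7 against P5, with 0 for the mimic at each day. The members' median log2 differences ranged from 0.0379 to 0.162 for P14 minus P5, from 0.298 to 0.386 for P14 minus P7 and from -0.297 to -0.174 for P7 minus P5.

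The length slope as a covariate gave 59 higher for P14 against P5. It gave 13 higher and 1 lower for P14 against P7, with a median of 0.0816. For P7 against P5, where slope and day cannot be separated well, it gave 0 higher and 0 lower with a median of 0.0775. Subtracted length curves gave 43 higher for P14 against P5, 41 higher and 1 lower for P14 against P7 with a median of 0.126, and 4 lower for P7 against P5 with a median of -0.00316. Curves fitted without the members, an alternative chosen after seeing the data, gave 45 higher, then 41 and 1 with 0.13, and 4 lower with -0.00335. With no filter on low values there was 1 lower for P14 against P7, and 2 higher and 17 lower for P7 against P5. P7 against P5 had 18 lower in a fit of only the libraries compared and 2 lower without P7 scrambled replicates 2 and 3.

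The fit with the replicate number as a block (replicate block) gave 21 higher and 4 lower for P14 against P5, 88 higher for P14 against P7 and 31 lower for P7 against P5. Joined with length curves, the block gave 42 higher, then 39 and 1 with 0.126, and 2 higher and 3 lower with -0.00316. Same-numbered libraries correlated at -0.234 to 0.293 (median 0.0505, 45 pairs) and differently numbered ones at -0.303 to 0.404 (median -0.0102, 90 pairs), so the numbers were not taken to pair samples.

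Reversed differences of P14 minus P5 were all of uncalled members. Quantile normalization gave Atp5a1 -0.00814, Atp5b -0.0594, Cox7a2l 0.0444 and Atp6v1e1 -0.0177, and the slope covariate Atp6ap1 0.0144 and Cox7a2l 0.0557. Leaving out 1 library gave Cox4i1 -0.0374 to 0.101, Atp6ap1 -0.0496 to 0.0228, Cox6a1 -0.0608 to 0.078, Cox7a2 -0.0453 to 0.13, Cox7a2l -0.0527 to 0.0359, Cox8a -0.0365 to 0.111, Ndufa4 -0.0135 to 0.138, Atp5g3 -0.0153 to 0.126, Atp6v0d1 -0.00108 to 0.0451, Atp6v1e1 -0.015 to 0.0725 and Atp6v1g2 -0.0594 to 0.302. The cause was not tested. Over single named members and all settings 1807 values kept direction and call, 42 lost the call, 34 gained it and 31 reversed.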
